A study of Bos taurus with 4 samples.

Results

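Genomic imprinting leaves 1 parental copy of a gene silent, so that maternally and paternally expressed genes are read mainly from the copy of the named parent. The marks are set on DNA in the germline and have to be kept through the wave of demethylation in the preimplantation embryo, and embryo culture in cattle is known for disturbing some of them, as in large offspring syndrome. Many imprinted genes act on growth of the fetus or placenta, with growth-promoting products such as IGF2 from the paternal copy and growth-restraining products such as PHLDA2 and CDKN1C from the maternal copy. The RNA of 48 such genes was looked for in the inner cell mass (ICM) of bovine blastocysts, and 23 of them had a probe that the annotation of the array names. The genes were listed by name, and earlier results of these data were known when the list was made. In mouse, human or cattle, 14 of the 23 are known as maternally expressed, 6 as paternally expressed, and 3 differ by transcript or tissue or have no settled direction. The arrays measured the total RNA of a gene and not its alleles, so they do not show whether a silent copy was read.

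Bovine embryos were produced in vitro from slaughterhouse oocytes of mixed breeds and grown for 4 days in SOF, a synthetic oviductal fluid that is a standard medium for cattle embryos, under 7% oxygen and 5% CO2. They then went into fresh SOF or into naïve human stem cell medium (NHSM), and ICMs were dissected on day 9. NHSM has a KO DMEM base with 20% serum replacement, insulin, LIF at 20 ng/ml, bFGF at 8 ng/ml, TGFβ1 at 1 ng/ml and small molecules that block the kinases MEK, GSK3, PKC, JNK and p38, so a difference cannot be assigned to 1 component. Each of 8 pools held 11 to 24 ICMs, and each of 4 two-colour arrays carried 1 NHSM and 1 SOF pool of the same number. The NHSM pool was labelled with Cy3 on arrays 1 and 3 and with Cy5 on arrays 2 and 4. Dissection by hand leaves some trophectoderm (TE) cells on the ICM. The pools are described as independent biological replicates. Each p-value rests on the spread of the 4 arrays around a fit with a dye term, moderated in limma by the variances of all probes.

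Of the 23 genes, 18 were above the background floor (the 95th percentile of control spots) in all 4 pools of at least 1 medium. HTR2A (a serotonin receptor), PON3 (a lactonase) and PPP1R9A (an actin-binding protein of synapses) reached it in some pools. KCNQ1 (a potassium channel) and MAGEL2 (a member of the MAGE family) reached it in no pool, and no fold is given for them, although they count in the totals and class medians. The other 25 listed genes had no named probe and were not analysed here, namely H19, IGF2R, AIRN, PLAGL1, PEG3, USP29, ZIM2, MIMT1, PEG10, SGCE, MEST, GRB10, MKRN3, L3MBTL1, MCTS2, KCNQ1OT1, CD81, SLC22A18, NAP1L4 and the DLK1-DIO3 domain with DLK1, MEG3, RTL1, MEG8, MEG9 and DIO3.

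Of the 23 imprinted genes, 5 (21.7%) passed an adjusted p under 0.05 in limma, against 13.8% of all 12545 named genes (6.87% higher and 6.91% lower in NHSM). PHLDA2 and NDN were higher in NHSM, and NNAT, CDKN1C and OSBPL5 were lower. PHLDA2 and NNAT also differed by at least 1.5-fold, as did 2.59% of all named genes (1.23% higher and 1.36% lower). Without adjustment 6 of the 23 had a p under 0.05, as did 3188 of the 12545 named genes. Of the 8484 named genes above the floor in all 4 pools of a medium, 19.8% passed, and neither share was tested against the imprinted genes. In bulk RNA, fewer cells of a type and less RNA per cell cannot be told apart. The pool levels of the 2 media did not overlap for 3 of the 23 genes (PHLDA2, NNAT and COPG2), which is 13.0%, against 11.3% of all named genes.

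**Figure D1:**
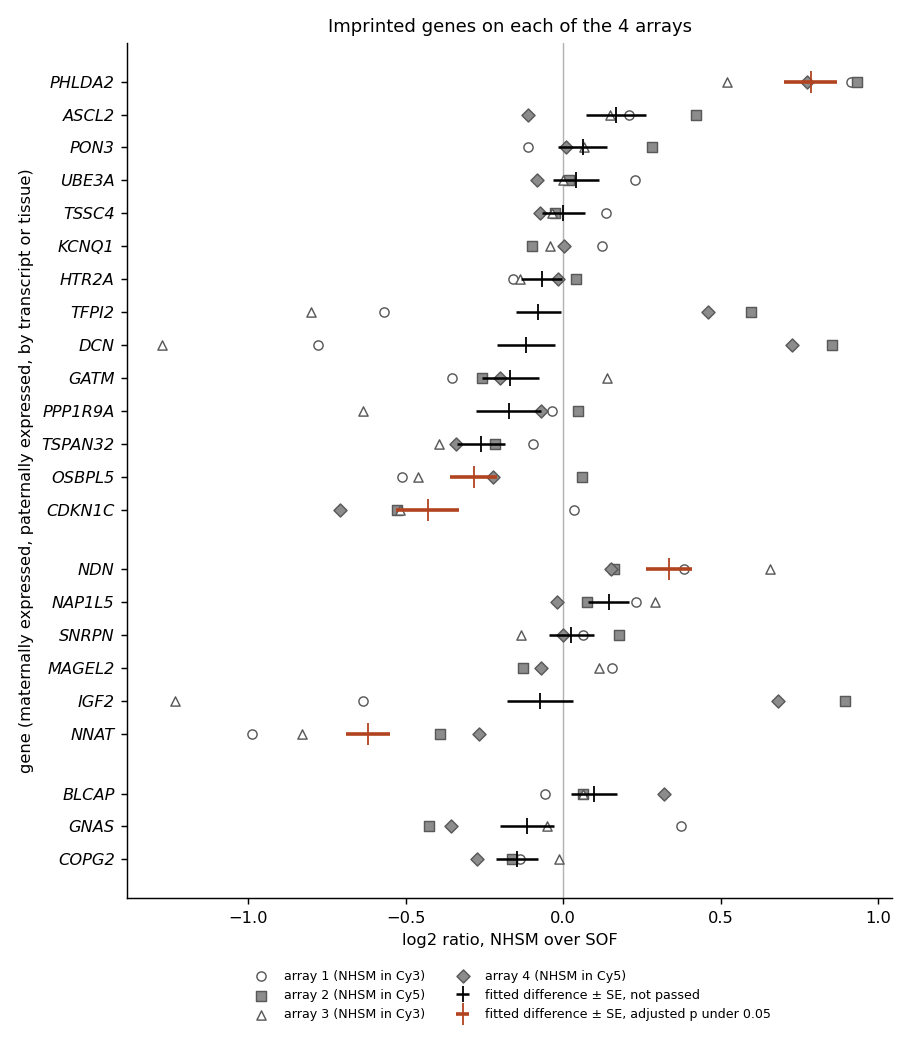
Log2 ratio of NHSM over SOF (x axis) of the 23 imprinted genes with a named probe on each of the 4 arrays, with maternally expressed genes at the top, paternally expressed genes in the middle and the other genes at the bottom. Vertical ticks with bars are the fitted difference ± SE, in red for the 5 genes that passed, and are left out for KCNQ1 and MAGEL2, which were above the floor in no pool. White symbols are arrays with NHSM in Cy3 and grey symbols arrays with NHSM in Cy5, and for IGF2, DCN and TFPI2 these lie on opposite sides of 0.

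PHLDA2, a maternally expressed gene whose product restrains growth of the placenta in mouse, had the largest difference of the 23 genes. Its log2 intensity was 8.34, 8.55, 7.82 and 8.14 in NHSM pools 1 to 4 and 7.43, 7.62, 7.30 and 7.37 in SOF pools 1 to 4. Every NHSM pool thus lay above every SOF pool. The log2 ratios on arrays 1 to 4 were 0.91, 0.93, 0.52 and 0.77, and the fitted difference was 0.79 ± 0.08 (SE, 1.72-fold, limma adjusted p = 0.00182, n = 4 arrays). The dye made little difference to this probe, with a dye term of 0.07 on the log2 scale. PHLDA2 has 1 named probe, so no further probe checks it.

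CDKN1C lies close by on chromosome 29, with 1 other protein-coding gene between the pair in the RefSeq annotation of ARS-UCD2.0, and encodes an inhibitor of cyclin-dependent kinases that holds back cell division. It is also maternally expressed, and it fell. Its log2 intensity was 8.33, 7.82, 7.69 and 7.74 in NHSM pools 1 to 4, against 8.29, 8.34, 8.20 and 8.45 in SOF. NHSM pools 2, 3 and 4 lay below all SOF pools, and NHSM pool 1 lay among them. The array ratios were 0.03, -0.53, -0.52 and -0.71. With the dye term of -0.19 taken off they were -0.15, -0.34, -0.71 and -0.52, all below 0. The fitted difference was -0.43 ± 0.10 (SE, 1.35-fold lower, adjusted p = 0.0281). Without array 1 it was -0.57 (adjusted p = 0.00107), while without array 2 (0.0564) or array 4 (0.116) the adjusted p no longer passed. CDKN1C also has only 1 named probe.

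OSBPL5, which encodes a lipid transfer protein and is maternally expressed in mouse and human placenta, was lower by less. The log2 intensity was 9.09, 9.15, 8.72 and 9.00 in NHSM pools 1 to 4 and 9.61, 9.10, 9.18 and 9.22 in SOF pools 1 to 4. The media overlapped, since NHSM pool 2 lay slightly above SOF pool 2. The array ratios of OSBPL5 were -0.51, 0.06, -0.46 and -0.22. With the dye term of 0.20 taken off they were -0.31, -0.14, -0.26 and -0.43, all below 0. The fitted difference was -0.28 ± 0.07 (SE, 1.22-fold lower, adjusted p = 0.0436). This call was lost when any 1 array was left out (adjusted p from 0.0523 to 0.293). A second, dimmer OSBPL5 probe read -0.11.

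The 3 genes belong to the KCNQ1 domain, a cluster whose maternally expressed genes are silenced on the paternal copy through the noncoding RNA KCNQ1OT1 in mouse. KCNQ1OT1 had no named probe. Of the 7 genes of the domain that were measured, 1 was higher, 2 were lower and 4 did not pass. That is 42.9% passing, against 13.8% of all named genes and 19.8% of those above the floor, and the share was not tested. TSPAN32 (a tetraspanin) had ratios of -0.10, -0.22, -0.39 and -0.34, below 0 on all 4 arrays, with a fitted difference of -0.26 ± 0.08 that missed the threshold (adjusted p = 0.0651). Its 2 other probes, both dimmer, read -0.01 and -0.05 and did not pass. Of the 23 imprinted genes, 21.7% had the same sign on all 4 arrays, against 25.3% of all named genes. ASCL2, a transcription factor that the trophoblast needs in mouse, was at 0.17 ± 0.09 (adjusted p = 0.343). TSSC4, which takes part in the assembly of the splicing machinery, was at 0.00 ± 0.07 (adjusted p = 0.998). The genes of this domain thus did not share a direction.

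**Figure D2:**
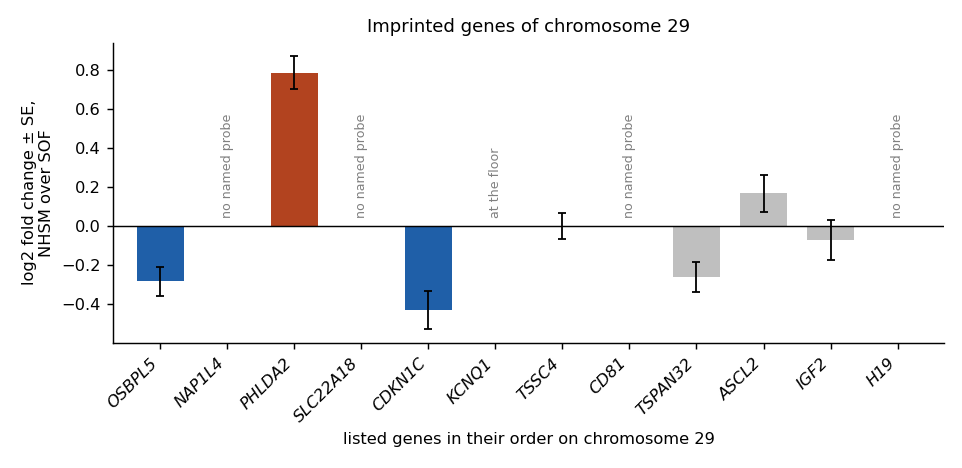
Fitted log2 fold change of NHSM over SOF (y axis, bars, with SE as error bars) of the listed genes of chromosome 29 in the order of the RefSeq annotation, not to distance. Red is higher and blue lower at an adjusted p under 0.05, grey did not pass, and genes without a named probe, and KCNQ1 at the floor, have no bar. PHLDA2 stands at 0.79 between OSBPL5 at -0.28 and CDKN1C at -0.43.

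IGF2, a paternally expressed growth factor of the neighbouring H19-IGF2 domain on chromosome 29, did not differ detectably, and its ratios changed sign with the dye. The log2 ratios of its brightest probe were -0.64, 0.90, -1.23 and 0.68 on arrays 1 to 4. The ratio was below 0 wherever NHSM was in Cy3 and above 0 wherever it was in Cy5. The dye term was 0.86, larger than for 99.3% of named genes in size. With the dye in the model the difference was -0.07 ± 0.10 (SE, 95% interval -0.32 to 0.17, adjusted p = 0.761). The pool levels were 11.13, 10.68, 10.27 and 10.58 in NHSM and 11.76, 9.78, 11.50 and 9.90 in SOF. The gene has 13 named probes, 6 of them above the floor in all 4 pools of a medium, and none passed, with fitted differences from -0.17 to 0.08.

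The same pattern held for DCN (decorin, a matrix proteoglycan) and TFPI2 (an inhibitor of serine proteases), which are maternally expressed in mouse placenta. The brightest DCN probe had ratios of -0.78, 0.85, -1.27 and 0.73, a dye term of 0.91 and a fitted difference of -0.12 ± 0.09 (adjusted p = 0.515). TFPI2 had ratios of -0.57, 0.60, -0.80 and 0.46, a dye term of 0.61 and a fitted difference of -0.08 ± 0.07 (adjusted p = 0.595). These 3 genes had the only dye terms over 0.5 among the 23, whose median size was 0.09. Over the 23 genes, the ratios of arrays with the same dye orientation correlated at 0.81 and 0.92, and those of opposite orientation between -0.21 and -0.04. Over all probes the values were 0.56 and 0.59 for the same orientation and 0.06 to 0.19 for the opposite one. These correlations are across genes, which share the array and the dye, and they are given as a description.

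**Figure D3:**
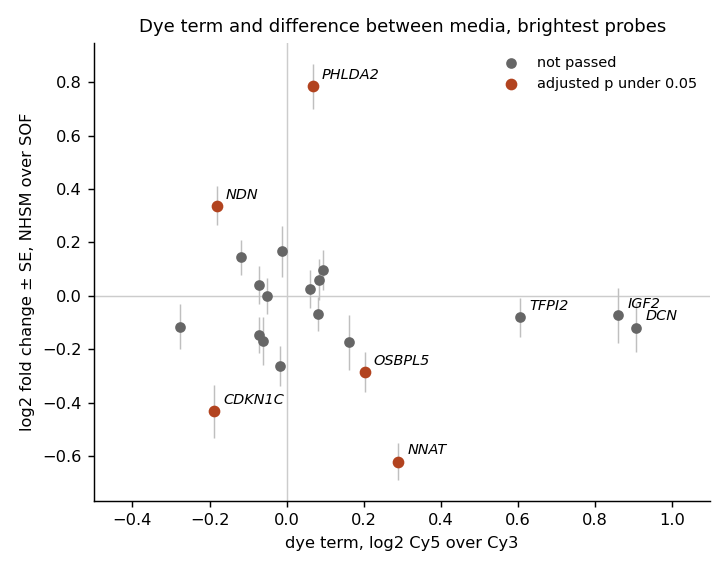
Dye term (x axis, log2 of Cy5 over Cy3) and fitted difference between the media (y axis, log2 of NHSM over SOF, with SE as error bars) for the brightest probe of the imprinted genes except KCNQ1 and MAGEL2. DCN, IGF2 and TFPI2 lie far to the right at differences near 0, and PHLDA2 lies at the top with a dye term of 0.07.

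NNAT, a paternally expressed gene for a small membrane protein of the developing brain, was the most reduced of the 23 genes. Its log2 intensity was 9.08, 9.05, 8.88 and 8.88 in NHSM pools 1 to 4 and 10.06, 9.44, 9.71 and 9.15 in SOF pools 1 to 4. All NHSM pools lay below all SOF pools, and the SOF pools varied more (SD 0.39) than the NHSM pools (SD 0.11). The array ratios were -0.99, -0.39, -0.83 and -0.27, more negative where NHSM was in Cy3. With the dye term of 0.29 taken off they were -0.70, -0.68, -0.54 and -0.56. The fitted difference was -0.62 ± 0.07 (SE, 1.54-fold lower, adjusted p = 0.00198). The other 2 NNAT probes, both much dimmer, read -0.06 and -0.04 and did not pass, and the mean of the 3 probes was -0.24 (adjusted p = 0.0313). BLCAP, a gene linked to cell death that lies next to NNAT on chromosome 13, was at 0.10 ± 0.07 (adjusted p = 0.501), so the neighbours differed in what passed, and the difference between them was not tested.

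NDN (necdin), a growth suppressor of the MAGE family and paternally expressed in mouse and human, rose. The log2 intensity was 10.28, 9.73, 10.34 and 10.17 in NHSM pools 1 to 4 and 9.89, 9.57, 9.68 and 10.02 in SOF pools 1 to 4. The 2 media overlapped, although the NHSM pool was the higher on every array. The ratios were 0.38, 0.16, 0.65 and 0.15, and the fitted difference was 0.34 ± 0.07 (SE, 1.26-fold, adjusted p = 0.0225). Without array 2, 3 or 4 the adjusted p was 0.106, 0.0589 and 0.100. The second NDN probe, which was above the floor in only some pools, read 0.02, and the mean of both was 0.18 (adjusted p = 0.0697).

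NDN lies in the SNRPN domain on chromosome 21, the region lost in Prader-Willi and Angelman syndromes in human. SNRPN, which encodes a spliceosomal protein, had pool levels of 11.29, 11.46, 11.14 and 11.22 in NHSM and 11.23, 11.28, 11.28 and 11.22 in SOF. Its array ratios were 0.06, 0.18, -0.13 and 0.00, with a fitted difference of 0.03 ± 0.07 (95% interval -0.14 to 0.20, adjusted p = 0.892), and none of its 5 probes passed. UBE3A, a ubiquitin ligase expressed from the maternal copy in neurons, was at 0.04 ± 0.07 by its brightest probe. Of the 4 genes of the domain that were measured, 1 was higher and 3 did not pass, among them MAGEL2, which was above the floor in no pool. That is 25% passing, against 13.8% of all named genes and 19.8% of those above the floor, and the share was not tested.

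**Figure D4:**
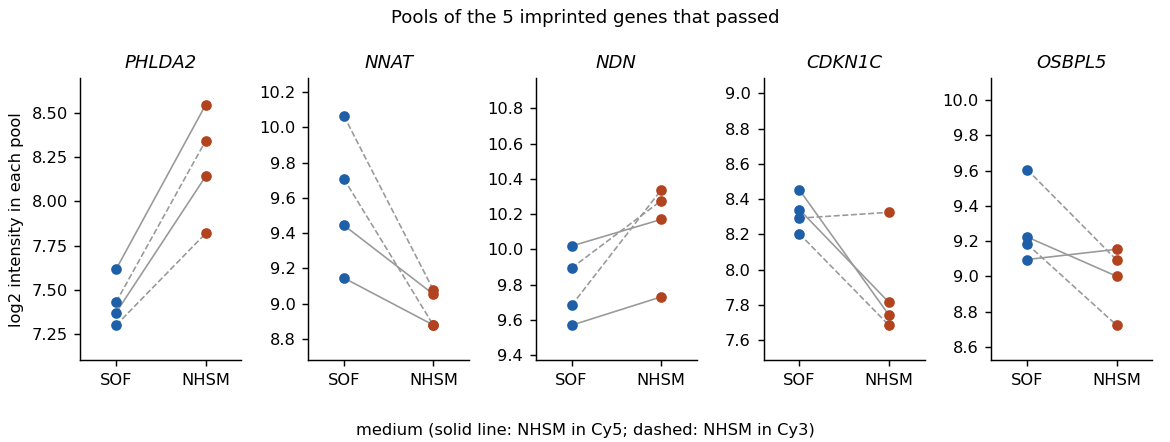
Log2 intensity after normalization (y axis) of the 5 imprinted genes that passed, in each SOF pool (blue) and NHSM pool (red). Lines join the 2 pools of 1 array, solid where NHSM was in Cy5 and dashed where it was in Cy3, and each panel spans the same number of log2 units. The media separate for PHLDA2 and NNAT and overlap for NDN, CDKN1C and OSBPL5.

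GNAS, whose products include the stimulatory G protein subunit, is expressed from either copy depending on the transcript. The ratios of its brightest probe were 0.38, -0.42, -0.05 and -0.36, and the fitted difference was -0.11 ± 0.09 (SE, 95% interval -0.31 to 0.08, adjusted p = 0.486). The pool levels were 13.21, 12.95, 13.33 and 13.04 in NHSM and 12.83, 13.38, 13.38 and 13.39 in SOF, with overlap. None of its 6 probes passed, and the annotation does not tell which transcript each one reads. COPG2, a coatomer subunit, was below 0 on all 4 arrays at -0.15 ± 0.07 (adjusted p = 0.231). Its symbol is also an old name of COPG1, so which of the 2 genes the probe reads is uncertain.

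The 18 genes that did not pass had fitted differences from -0.26 to 0.17 with SEs from 0.06 to 0.10, and their 95% intervals lay between -0.44 and 0.39. A p that missed the threshold does not show that a gene was the same in both media. The group holds TSPAN32, ASCL2, TSSC4, KCNQ1, IGF2, SNRPN, MAGEL2, UBE3A, PPP1R9A, PON3, TFPI2, COPG2, GNAS, BLCAP, HTR2A and DCN, together with NAP1L5, a relative of nucleosome assembly proteins, and GATM, an enzyme of creatine synthesis.

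Further probes of the same genes were read as a check. Of 51 such probes, 3 passed after adjustment over all 43653 probes, of which 8.43% passed. A GATM probe had ratios of -0.25, -0.45, -0.15 and -0.64 and a fitted difference of -0.37 ± 0.07 (adjusted p = 0.0189), while the brightest GATM probe had ratios of -0.35, -0.26, 0.14 and -0.20 and was at -0.17 ± 0.09. A UBE3A probe had ratios of 0.36, 0.27, 0.41 and 0.40 and a fitted difference of 0.36 ± 0.07 (adjusted p = 0.0179), against ratios of 0.23, 0.02, 0.00 and -0.08 for the brightest. A DCN probe had ratios of 0.50, -0.03, 0.92 and 0.23 and a fitted difference of 0.40 ± 0.09 (adjusted p = 0.0362), opposite in sign to the brightest. The GATM and UBE3A probes lost their calls without array 2 or 4 (adjusted p up to 0.131 and 0.125). The DCN probe lost its call without array 2, 3 or 4 (up to 0.179) and on the authors' ratios (0.0502). Without a dye term, the GATM (adjusted p = 0.0911) and DCN (0.240) probes did not pass. On separate channels the GATM (0.0573), UBE3A (0.106) and DCN (0.155) probes all did not pass. The difference between probes of a gene was not tested.

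**Figure D5:**
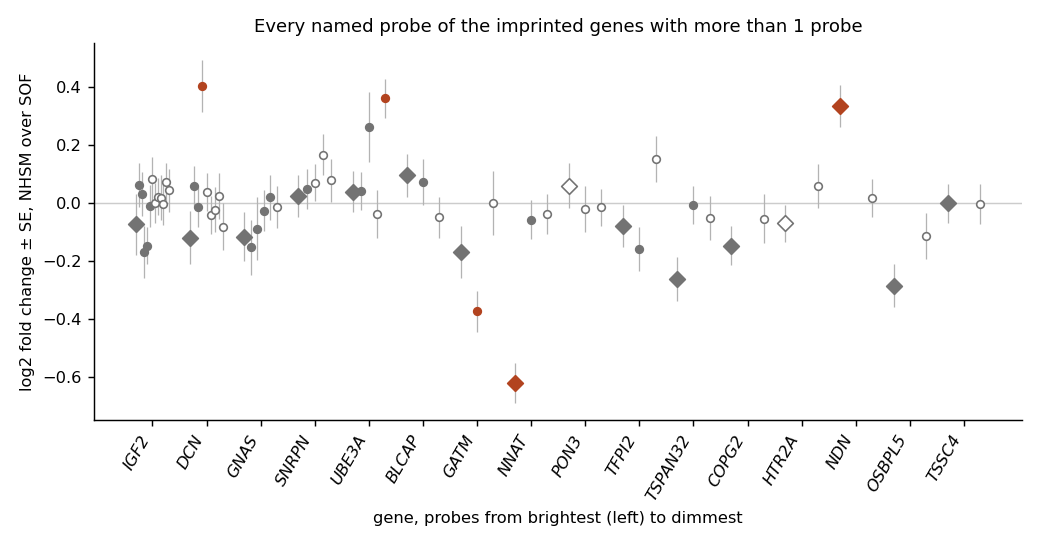
Fitted log2 fold change ± SE of NHSM over SOF (y axis) of every named probe of the 17 imprinted genes with more than 1 probe except MAGEL2, from the brightest (diamond) to the dimmest. Red marks an adjusted p under 0.05 over all probes, under which OSBPL5 does not pass, and white symbols were not above the floor in all 4 pools of a medium. The 13 IGF2 probes lie near 0, and single probes of DCN, UBE3A and GATM stand away from the brightest probe of their gene.

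Maternally and paternally expressed genes were then set side by side. The classes come in part from other tissues. OSBPL5, TSPAN32, ASCL2, GATM, DCN, TFPI2 and PON3 were classed as maternal from the placenta of mouse or human, and UBE3A from neurons. Whether these genes were imprinted in bovine ICM was not measured. The median fitted difference of the 14 maternally expressed genes was -0.07, with 4 above 0 and 10 below, and 1 passed as higher and 2 as lower. The 6 paternally expressed genes had a median of 0.02, with 4 above 0 and 2 below, and 1 passed in each direction. The shares that passed were 21.4% of the maternal and 33.3% of the paternal genes, against 13.8% of all named genes. Among genes above the floor, 30% of the maternal and 40% of the paternal genes passed, against 19.8% of all named genes above it. These shares were not tested. The median of all named genes was -0.02, with 5617 above 0 and 6928 below. On arrays 1 to 4 the maternal median was -0.07, 0.04, -0.09 and -0.07, and the paternal median 0.11, 0.12, -0.01 and -0.01. The maternal median lay below the paternal one on all 4 arrays, by 0.18, 0.07, 0.08 and 0.06, and in the fit by 0.10. The SD of the gap over the 4 arrays was 0.05. Among these genes 4 of the maternal genes and 1 of the paternal genes were not above the floor in all 4 pools of a medium, and no test was made of the 2 classes. The medians include KCNQ1 and MAGEL2.

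The marks of imprinted genes are kept by a set of proteins. A wider list of 38 genes was read, of which 31 had a named probe. It is not limited to genes that keep the marks, and also holds TET1, TET2, TET3 and TDG, which act in removing DNA methylation. EED, a subunit of Polycomb repressive complex 2, rose by 0.50 ± 0.09 (adjusted p = 0.0112). HELLS, a chromatin remodeller needed for DNA methylation, was lower at -0.48 ± 0.08 (adjusted p = 0.00874). TLE6, a member of the subcortical maternal complex, was at -0.39, ARID4B at -0.34, the histone methyltransferase EZH1 at -0.33 and UHRF2, a relative of the DNMT1 partner UHRF1, at -0.24, and all 4 passed as lower. So 1 gene rose, 5 fell and 25 did not pass, which is 19.4% passing against 13.8% of all named genes and 19.8% of those above the floor, and none reached 1.5-fold. Under 12 alternative ways of processing, TLE6 ran from -0.45 to -0.08 and passed under 9. UHRF2 ran from -0.27 to -0.08 and passed under 2. ARID4B ran from -0.37 to -0.20 and EZH1 from -0.40 to -0.15, and each passed under 7. EED and HELLS each passed under 10. The maintenance methyltransferase DNMT1 (0.09 ± 0.07), its partner UHRF1 (0.07 ± 0.08), the de novo methyltransferase DNMT3A (-0.26 ± 0.09, adjusted p = 0.0945) and the corepressor TRIM28 (-0.08 ± 0.08) did not pass. The median of the list was -0.08.

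Of 24 genes of the IGF pathway, in which IGF2 acts, 22 had a named probe. IGFBP3, a carrier that binds IGFs, was lower at -0.39 ± 0.07 (adjusted p = 0.00916), with ratios of -0.39, -0.47, -0.34 and -0.35. IGF2BP3, which binds IGF2 mRNA, was lower at -0.30 ± 0.07 (adjusted p = 0.0262). PIK3CA, a catalytic subunit of PI3 kinase, was higher at 0.35 ± 0.07 (adjusted p = 0.0151). The receptor IGF1R was at -0.08 ± 0.09 (adjusted p = 0.684), and 19 genes of the list did not pass, so that 13.6% passed against 13.8% of all named genes. IGF2BP3 lost its call without array 2, 3 or 4 (adjusted p up to 0.143), PIK3CA without array 2 or 4 (up to 0.0874) and IGFBP3 without array 2 (0.0681). Calls were also lost under other alternatives. Of all 12, IGFBP3 passed under 9 (-0.42 to -0.16), PIK3CA under 8 (0.30 to 0.39) and IGF2BP3 under 6 (-0.34 to -0.16).

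Markers of the cell types that the pools could hold were read in the same way, against 13.8% of all named genes that passed. Of 6 epiblast markers with a named probe (of 12 listed), NANOG (-0.31), SOX2 (-0.32) and PRDM14 (-0.32) fell, and LIN28B was above the floor in no pool. The summed intensity ran from 4536 to 5681 in NHSM and from 5903 to 6540 in SOF, without overlap. NANOG, the brightest of the 6 (mean log2 intensity 11.96, then SOX2 at 9.75), weighed most in that sum. Of 15 TE markers (of 24 listed), TFAP2A (-0.46) and GATA2 (-0.35) fell and 13 did not pass, and the sum ran from 142796 to 192840 in NHSM and from 158065 to 206752 in SOF. The TE sum holds bright probes with large dye terms, such as PAG12 (-0.62, with 2 saturated readings) and TFAP2C (-0.67). None of the sums in this paragraph was corrected for dye. Of 18 hypoblast markers (of 22 listed) LAMB1 (-0.72), SPARC (-0.58) and GATA6 (-0.44) fell and 15 did not pass. The sum over the 18 ran from 25564 to 33371 in NHSM and from 31396 to 36702 in SOF. Of 11 cumulus and granulosa markers (of 15 listed) HSD3B1 (0.88) and FSHR (0.44) rose, FST (-0.51) and AMH (-0.32) fell, and NR5A1 was above the floor in no pool, with sums from 54002 to 67845 in NHSM and from 52529 to 91131 in SOF. The sign of the AMH ratio followed the dye (-0.94, 0.24, -1.11 and 0.55 on arrays 1 to 4, dye term 0.71). The part of cell type composition in the values of the imprinted genes was not tested.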

How the data were processed

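Total RNA of dissected ICMs was amplified, labelled and hybridised by the authors to bovine V2 arrays of Agilent, and spots were quantified with ImaGene. The deposited scanner files hold linear mean and background intensities per spot with no normalization. The authors' deposited table gives a log2 ratio (Cy5 over Cy3) for every spot of an array, after loess and a correction of gene-specific dye bias, and was used as an alternative.

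Log2 ratios of mean intensity were normalized here by loess array by array, no background being subtracted, with 1567 control spots at weight 0. The limma package (3.58.1, R 4.3.3) fitted a dye term and NHSM against SOF on 43653 probes, with 2 residual and 5.33 prior degrees of freedom. The ratio within an array keeps the pair of pools together. Benjamini-Hochberg adjustment ran over 12545 named genes, each by its named probe of highest mean intensity, or over all probes. "Passed" means an adjusted p under 0.05. Pool levels are log2 intensities after quantile normalization of the mean of both channels. The floor of a channel was the 95th percentile of the 2 control probes with most spots (604 and 153). The number of arrays limits the precision. Symbols came from the annotation of the array, updated through the RefSeq annotation of ARS-UCD2.0, which also gave chromosomes and gene order. The build behind the array's probes is not given in the sources used here, and no coordinates are printed. Figures were drawn with matplotlib 3.10.9.

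Every gene with a named probe is listed. All array values are given for genes that passed by any probe and for the best known imprinted genes that had a probe (IGF2, SNRPN, GNAS, CDKN1C and PHLDA2). TSPAN32, TFPI2 and COPG2 were singled out after their values were seen. The genes, lists, tests and naming rule were chosen with earlier results of these data known. Alternatives were normexp, median centring, the authors' ratios, no dye term, separate channels, another variance model, a filter on dim probes, the mean of a gene's probes, and each array left out.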

Additional observations from a re-analysis of the deposited data

Results flagged for a closer look

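In 37 genes (the 23 imprinted genes and the genes of the 2 other lists named above) the 4 array ratios were searched for an array far from the others, and 2 had one by Dixon's criterion for 4 values. PPP1R9A had a log2 ratio of NHSM over SOF of -0.64 on array 3, against -0.07 to 0.05 on the other 3 arrays, and it was above the floor in 1 pool of each medium. TRIM28 had a ratio of 0.18 on array 1, against -0.19 to -0.13 on the others. Chance puts about 1 in 20 groups past this criterion.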

How the results depend on the processing

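PHLDA2 passed under all 12 alternatives (0.69 to 0.88 on the log2 scale), NNAT under 11 (-0.66 to -0.24), CDKN1C under 8, NDN under 6 and OSBPL5 under 2, each with 1 sign throughout, and 15 of the 23 genes passed under none. The fit on separate channels with no replicate block, which gives up the pairing of pools on an array, left 1 of the 23 genes (PHLDA2, 1 higher and 0 lower, 1 at 1.5-fold), with NNAT at an adjusted p of 0.0606, 716 named genes and 1102 probes. Without a dye term 2 passed (1 higher, 1 lower), with 1009 genes and 1830 probes, against 1729 genes and 3679 probes in the main model. Averaging the probes of each gene left 3 (1 higher), 1 of them at 1.5-fold, and 144 of all named genes at 1.5-fold. Median centring and the authors' ratios left 1 at 1.5-fold.

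Leaving out each array in turn gave 2 to 6 of the 23 genes (1 to 2 higher, 1 to 4 lower, 1 to 2 at 1.5-fold), 892 to 2162 named genes and 1642 to 4761 probes. The lowest counts came without array 2 (2 imprinted genes, 892 named genes) and without array 4 (2 and 935). CDKN1C lost its call without array 2 or 4, NDN without array 2, 3 or 4 and OSBPL5 without any 1 array, while TSPAN32 (-0.34, adjusted p = 0.0203), PPP1R9A (-0.32, 0.0240) and DNMT3A (-0.38, 0.0107) passed without array 1 and GATM (-0.29, 0.0415) without array 3. Of the 2 other lists, EED and HELLS passed without each array in turn, UHRF2 lost its call whichever array was left out, ARID4B without array 2 or 4, EZH1 without array 2 and TLE6 without array 4. The maternal median lay below the paternal median under every alternative (-0.12 to -0.05). The causes of these shifts were not tested. Genes near the floor, such as PON3, HTR2A and MAGEL2, are limited by signal over background.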
